A study of Mus musculus with 21 samples.

Results

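The genes described here are the mouse zinc finger genes whose symbols run from Zfp900 to Zfp999, with an optional trailing letter and without pseudogene symbols. The gene count tables held 57 such symbols among 24495 gene rows, with numbers from 930 to 995, and 328 other numbered Zfp genes. They were read in male germ cells sorted by the Oct4-GFP reporter from testes of the offspring of Tex15 heterozygous matings, on a mixed strain background. Tex15 knockout (KO) and heterozygous (HT) cells were collected at embryonic day 16.5 (E16.5), at embryonic day 18.5 (E18.5) and after birth, at D2.5, where wild-type (WT) cells were collected too. The postnatal age is given as 2.5 days in the sample names and as day 2 in the design text. Each of the 7 groups held 3 libraries, described as biological triplicates, and the HT cells, which serve as control at every age, carry 1 mutant allele. The RNA was amplified before sequencing.

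KRAB zinc finger proteins carry an N-terminal KRAB box, which recruits the corepressor Trim28 (KAP1), and an array of C2H2 zinc fingers, each of which contacts a few bases of DNA. Trim28 in turn brings the histone methyltransferase Setdb1, and the complex is best known for silencing retroelements in embryonic stem cells and early embryos. The family grows by local duplication, so many of its genes lie in clusters of close relatives and are specific to mouse or to rodents. Tex15 itself is needed in mice to silence transposons in fetal male germ cells and to complete meiosis. The comparison of KO with HT cells asks whether expression differs when Tex15 is missing, and the 3 ages follow the cells across birth.

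All 57 genes matched the GENCODE M21 annotation (GRCm38) by name, and 56 of them are annotated as protein coding (Zfp939 is a transcribed pseudogene). A KRAB pattern was found in the first 200 residues of 52 of the 56 coding products, and at least 1 C2H2 pattern in 53. The exceptions for the KRAB pattern were Zfp956, Zfp957, Zfp972 and Zfp974. Finger patterns numbered 3 in Zfp979, 10 in Zfp985, 11 in both Zfp984 and Zfp961, 15 in Zfp948 and 21 in Zfp974, the highest count. The genes lie on 12 chromosomes, and when neighbours less than 2 Mb apart are joined, 3 stretches hold 8 or more of them. Chromosome 4 holds Zfp979, Zfp980, Zfp981, Zfp982, Zfp984, Zfp985, Zfp987, Zfp991, Zfp992 and Zfp933. One stretch of chromosome 17 holds Zfp942 to Zfp948, Zfp983, Zfp994 and Zfp995, and the stretch of chromosome 2 holds Zfp931, Zfp965, Zfp966, Zfp967, Zfp970, Zfp971, Zfp972 and Zfp973. The coordinates of the deposited counts refer to an older build (mm9), so the annotation is used here for names, chromosomes, lengths and sequence only.

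Close copies limit how surely reads can be assigned to single genes. A 31-base word of a member counted as shared if any other annotated gene held it. The median member shared 31.7% of its words, and 16 of the 57 shared more than 50%. Zfp984 shared 68.8%, and Gm13212 was the gene that held the most of these words. Zfp980 shared 82.8%, with Rex2 as the gene that held the most. The neighbours Zfp955a and Zfp955b shared 66.0% and 63.5%, and each held the most of the other's shared words. Zfp948 (4.37%), Zfp961 (4.97%) and Zfp945 (1.69%) were nearly free of such overlap, while Zfp979 (32.4%) and Zfp985 (39.4%) lay between. How the authors treated reads that match several genes, and whether strand was used, is not given in the sources used here, so values of the high-sharing genes are uncertain between copies.

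Of the chromosome 4 genes, 7 also resembled one another at their start sites. Promoter windows of RefSeq (GRCm38.p6, 250 bases before to 50 after the annotated start) were at hand for 52 members. Shared words were searched for after the expression values were known, in the windows of 7 chromosome 4 genes. These were Zfp979, Zfp980, Zfp981, Zfp982, Zfp984, Zfp985 and Zfp987. Zfp933 was left out of the search, and Zfp991 and Zfp992 had no window. The longest word common to all 7 was TGGGAAGCTAATTAA, which was in no other member and in 12 of all 32851 windows (0.0365%). The second word, TATTGGGCGGGT, was the longest that held GGGCGG, as the search required, and occurred in at least 6 of the 7 genes. It was present in 8 members. The second word was present in 6 of those chromosome 4 genes and in Zfp947 and Zfp994 of chromosome 17, and again in 12 of all windows (0.0365%). Outside the members it was held by Gm13212, Rex2, Zfp600 and Zfp988. Both strands were searched. The windows below are those of the 3 chromosome 4 genes with the highest levels per kb of exon, of a chromosome 17 gene that has the second word only, and of Zfp961, which has neither. They are written 5′ to 3′ along the gene's strand, with the 2 words in capitals.
Zfp979, chr4:147642459-147642758, minus strand: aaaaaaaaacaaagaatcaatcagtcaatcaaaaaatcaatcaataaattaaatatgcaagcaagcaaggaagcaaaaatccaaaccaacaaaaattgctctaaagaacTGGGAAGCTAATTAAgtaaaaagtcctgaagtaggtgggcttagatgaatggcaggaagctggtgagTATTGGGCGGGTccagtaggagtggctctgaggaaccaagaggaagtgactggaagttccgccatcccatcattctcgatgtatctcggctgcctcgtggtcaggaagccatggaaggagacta
Zfp984, chr4:147809739-147810038, minus strand: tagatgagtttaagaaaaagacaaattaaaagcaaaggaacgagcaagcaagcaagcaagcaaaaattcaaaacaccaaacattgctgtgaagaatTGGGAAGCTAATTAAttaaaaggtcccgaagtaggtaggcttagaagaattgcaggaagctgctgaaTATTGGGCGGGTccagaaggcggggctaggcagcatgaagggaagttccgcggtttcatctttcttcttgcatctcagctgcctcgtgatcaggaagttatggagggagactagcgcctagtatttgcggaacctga
Zfp985, chr4:147553027-147553326, plus strand: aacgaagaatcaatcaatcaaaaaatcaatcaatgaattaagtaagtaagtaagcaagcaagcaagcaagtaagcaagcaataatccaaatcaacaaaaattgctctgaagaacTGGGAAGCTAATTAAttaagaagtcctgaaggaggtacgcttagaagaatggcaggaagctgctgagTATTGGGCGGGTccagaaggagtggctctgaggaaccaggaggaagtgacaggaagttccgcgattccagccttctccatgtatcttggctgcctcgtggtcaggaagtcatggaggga
Zfp994, chr17:22225565-22225864, minus strand: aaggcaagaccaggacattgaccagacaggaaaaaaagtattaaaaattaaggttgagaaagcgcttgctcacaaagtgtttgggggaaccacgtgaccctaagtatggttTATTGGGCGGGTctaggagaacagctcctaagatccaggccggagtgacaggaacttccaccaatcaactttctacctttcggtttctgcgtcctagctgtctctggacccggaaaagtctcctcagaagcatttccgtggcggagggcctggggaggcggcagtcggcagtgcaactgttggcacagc
Zfp961, chr8:71950816-71951115, plus strand: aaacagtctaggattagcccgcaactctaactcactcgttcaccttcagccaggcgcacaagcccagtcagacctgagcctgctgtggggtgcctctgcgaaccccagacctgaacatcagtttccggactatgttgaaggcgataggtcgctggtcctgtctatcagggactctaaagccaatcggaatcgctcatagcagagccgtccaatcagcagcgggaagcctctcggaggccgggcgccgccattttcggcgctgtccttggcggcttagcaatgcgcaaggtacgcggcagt

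The second word ends 63 bases before the start site in Zfp979, 76 in Zfp984, 58 in Zfp985 and 128 in Zfp994. Aligned end to end, the windows of the 7 chromosome 4 genes that hold the first word were 67.9% to 89.5% identical to each other (median 78.6%, 21 pairs). Their identity was 41.9% to 48.2% with the Zfp994 window and 45.9% to 47.5% with the Zfp961 window. Zfp933, of the same stretch, was not aligned. General promoter words were also searched for on both strands. CCAAT was present in 40 of the 52 members with a window and in 11096 of all 27025 genes (37.4% of all windows). GGGCGG, which the second word was required to hold, was present in 20 members and 10324 of all genes (35.7% of all windows). TATAAA was present in 0 members and 4234 of all genes (13.6% of all windows). These matches are descriptions of sequence and do not show that a factor binds there.

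The 21 libraries held 6063632 to 11884109 gene counts, the fewest at D2.5, and the members took 85199 counts in all. Levels are given as CPM, the counts of a gene scaled to library size over gene rows, and 3 counts, used as a floor, correspond to 0.252 to 0.495 CPM. Every D2.5 library had more genes at 0 (7227 to 8279) than every embryonic library (2359 to 5815). The spread between replicates, as edgeR's biological coefficient of variation, was smallest at E18.5 (17.9%), with 37.3% for the E16.5 libraries and 55.4% after birth. A list of 10 germ cell markers summed to 2352 to 6059 CPM in every library, but the level of its median gene was 387.0 CPM at E16.5, 164.5 CPM at E18.5 and 18.9 CPM at D2.5 in KO cells, and 357.7, 211.8 and 27.99 CPM at the same ages in HT cells. The lists for Sertoli (7 of 8 genes in the tables), Leydig (6 genes), endothelial (5 genes) and macrophage or blood cells (7 genes) stayed between 10.1 and 249.5 CPM, with Hba-a1 and Hbb-b1 at 0 throughout and Insl3 at 0 at D2.5. The 6 stromal markers reached 509.8 CPM in 1 KO library at D2.5. Tex15 had 3.503, 2.93 and 4.16 CPM in KO cells at E16.5, against 773.7, 1001 and 1149 CPM in HT cells, and it was lower in every KO library than in every control library at the other ages too.

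Members spanned a wide range of levels. Zfp965, Zfp966 and Zfp967, neighbours on chromosome 2, had no count in any library, and Zfp973, Zfp991 and Zfp932 had 2, 4 and 15 counts over all 21. Zfp932, reported in mouse embryonic stem cells to repress endogenous retroviruses, was thus close to the floor in these counts. The first 5 of these share 87.97% or more of their 31-base words with other genes, and Zfp932 shares 48.25%. The counts of these genes are therefore uncertain between copies. Zfp972 and Zfp960 were also removed by the low-count filter in every fit, and Zfp957 was tested at D2.5 only. The filter left 42 members at E16.5, 44 at E18.5, 41 at D2.5 and 48 in the fit across ages.

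Per kb of annotated exon, averaged over the 7 groups, the highest level was that of Zfp984 (19.0 CPM per kb), followed by Zfp979 (11.8), Zfp948 (10.8), Zfp961 (8.23), Zfp985 (7.63) and Zfp955b (7.02). The lowest tested members were Zfp934 (0.195 CPM per kb), Zfp964 (0.259) and Zfp987 (0.262). The 6 members with the most counts held 47.9% of all member counts.

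The summed level of the 57 genes was highest after birth, and the KO and HT libraries overlapped at each age. At E16.5 the members summed to 343.6, 358.1 and 350.8 CPM in the KO libraries, against 358.0, 339.2 and 328.1 CPM in the HT libraries. At E18.5 the sums were 375.0, 364.2 and 410.6 CPM in KO cells and 407.2, 397.8 and 415.0 CPM in HT cells. The E18.5 libraries lay above the E16.5 libraries on this scale, but with the composition factors of the fold changes the order of the means turned, at 325.2 CPM at E18.5 and 346.6 CPM at E16.5 in KO cells, and 334.8 CPM at E18.5 and 357.2 CPM at E16.5 in HT cells. At D2.5 they were 772.8, 694.8 and 866.3 CPM in KO cells, 551.7, 777.4 and 636.3 CPM in HT cells and 630.0, 609.6 and 658.7 CPM in WT cells, so every D2.5 library lay above every embryonic one. Each KO library at D2.5 lay above each WT library. The chromosome 4 stretch accounted for 21.9% to 25.9% of member counts at E16.5, 31.2% to 35.4% at E18.5 and 34.9% to 43.6% at D2.5. In bulk libraries a change in the cells that were sorted and a change in RNA per cell cannot be told apart.

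**Figure D1:**
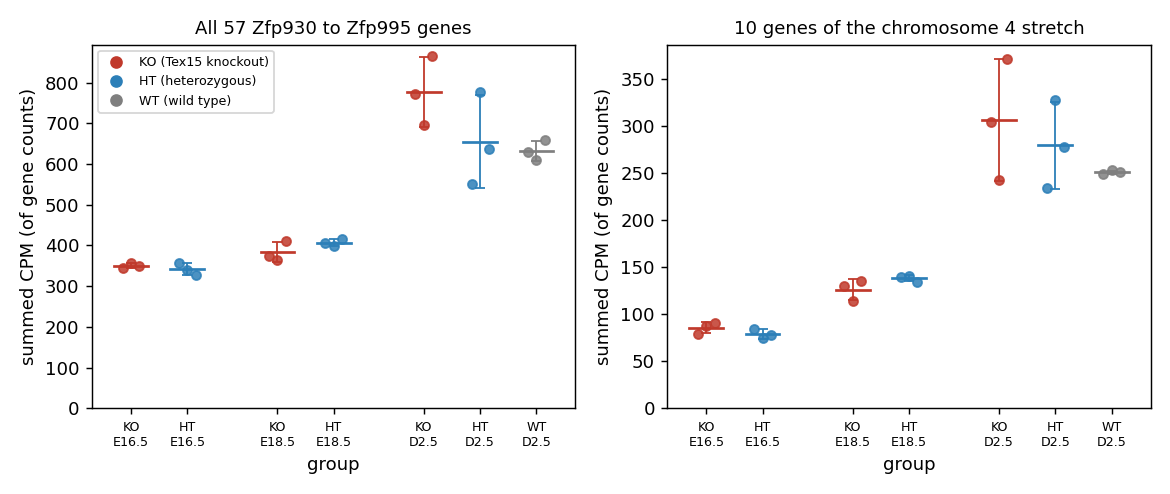
Summed CPM of the 57 members (left) and of the 10 members on chromosome 4 (right) in each library, with points for libraries, long bars for group means and error bars for the SD (n = 3 each). The D2.5 libraries sit between 551.7 and 866.3 CPM on the left, above all embryonic libraries (328.1 to 415.0 CPM).

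Loss of Tex15 was accompanied by no called change in these genes. In the quasi-likelihood test of edgeR, adjusted over all genes tested, 0 members passed an adjusted p of 0.05 in KO against HT cells at E16.5 (42 tested, 0.00618% of all genes called, which was Tex15 alone). The count was 0 of 44 members at E18.5 (2.14% of all genes called) and 0 of 41 at D2.5 (0.153% of all genes called). The same held for KO against WT (0.216% of all genes called) and HT against WT cells at D2.5 (0.00696% called, again Tex15 alone). At an unadjusted p under 0.05 stood 0 members in KO against HT cells at E16.5 (1.17% of all genes), 2 at E18.5 (8.12%) and 2 at D2.5 (7.21%), with 1 in KO against WT (7.77%) and 1 in HT against WT cells (3.4%). Across these 5 comparisons limma-voom called 0 members in each, while DESeq2 called 1 in KO against HT cells at D2.5 and 0 in the others. The member medians of the log2 fold change were 0.03 (E16.5), -0.07 (E18.5) and 0.18 (D2.5) for KO against HT cells, beside medians of all genes tested between -0.011 and -0.004. Leaving out 1 library moved these member medians between -0.022 and 0.099 at E16.5, between -0.107 and 0.013 at E18.5 and between 0.127 (without KO replicate 1) and 0.380 (without KO replicate 2) at D2.5, so the sign turned at both embryonic ages. The differences closest to the threshold are given next as values.

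**Figure D2:**
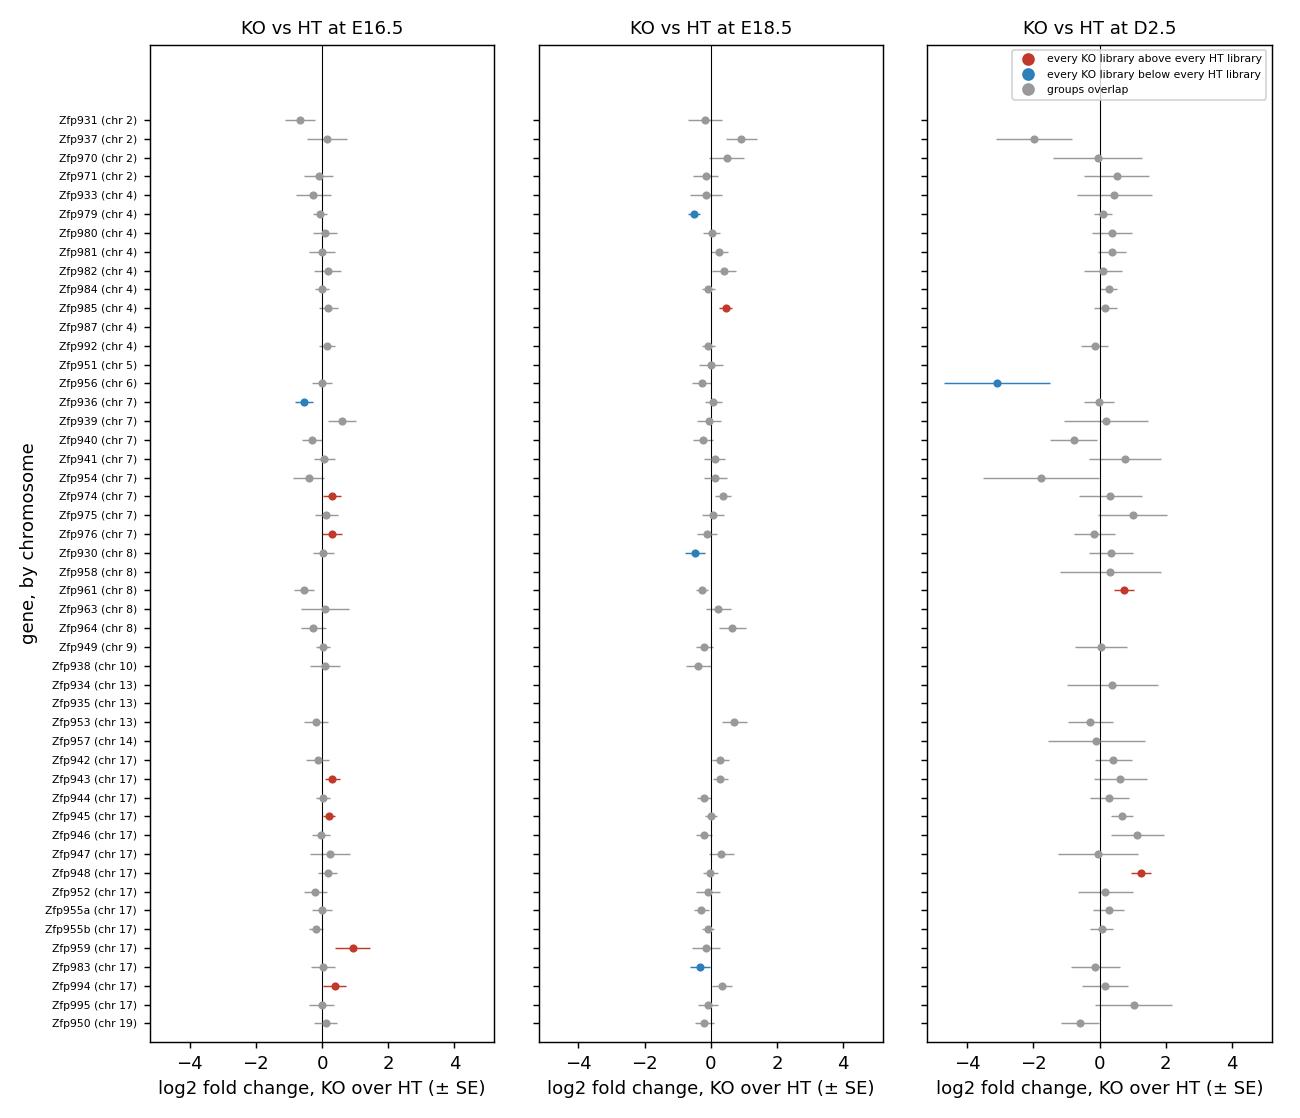
Log2 fold change of KO over HT cells with its SE for each tested member, with 1 panel per age and members ordered by chromosome. Most members lie near 0 at the embryonic ages, and the SE is wider at D2.5; Zfp948 and Zfp961 are the 2 members with every KO library above every HT library at D2.5.

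At E18.5, where the replicate spread was smallest, Zfp979 had 22.9, 28.2 and 33.6 CPM in KO cells, against 43.0, 41.2 and 39.8 CPM in HT cells. Every KO library lay below every HT library, with a log2 fold change of -0.51 (SE 0.18, unadjusted p = 0.0113, edgeR adjusted p = 0.279). Its neighbour Zfp985 went the other way, with 20.4, 15.7 and 17.5 CPM in KO cells and 12.2, 13.1 and 15.2 CPM in HT cells (log2 fold change 0.44, SE 0.19, edgeR adjusted p = 0.521). Zfp984, from the same stretch and the highest of the 3 per kb, overlapped between groups, at 47.1, 33.0 and 28.1 CPM in KO cells and 40.6, 41.6 and 35.0 CPM in HT cells. In all, 1 member had every KO library above every HT library at E18.5 (6.85% of all genes did) and 3 members had every KO library below (7.15% of all genes). At E16.5 the counts were 6 above (3.37% of all genes) and 1 below (3.34% of all genes), and the 6 were Zfp943, Zfp945, Zfp959, Zfp974, Zfp976 and Zfp994, with log2 fold changes of 0.22 to 0.92. The member below was Zfp936, at a mean of 9.12 CPM in KO and 12.6 CPM in HT cells (log2 fold change -0.54, SE 0.27, edgeR adjusted p = 0.976). Counts of groups without overlap rest on CPM from plain gene totals, while the fold changes use composition factors. With plain gene totals the median log2 fold change at E16.5 was 0.091 for members and 0.043 for all genes. With composition factors these medians were 0.029 and -0.011. Other members near the top by p, all with overlapping groups, were Zfp939 (0.61) and Zfp931 (-0.66) at E16.5 and Zfp937 (0.92) and Zfp953 (0.71) at E18.5, while Zfp930 (-0.49) was the remaining one without overlap beside Zfp983 (-0.33). The summed level of the macrophage and blood markers was 77.0 to 95.7 CPM in KO cells and 33.9 to 36.5 CPM in HT cells at E18.5, and its part in these values was not tested.

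Zfp948, a chromosome 17 gene with 15 finger patterns, stood closest to a call at D2.5. It had 64.5, 55.8 and 90.9 CPM in KO cells, against 25.7, 31.5 and 34.4 CPM in HT cells, a log2 fold change of 1.24 (SE 0.31, unadjusted p = 0.000564, edgeR adjusted p = 0.159). Its WT values of 49.5, 44.9 and 51.3 CPM lay between those of the KO and HT groups without overlap. KO against WT gave 0.55 (SE 0.30, edgeR adjusted p = 0.723) and HT against WT gave -0.69 (SE 0.31, edgeR adjusted p = 1.00). DESeq2 called the KO against HT difference (1.25, adjusted p = 0.00395). The other alternatives did not, with edgeR or limma-voom adjusted p between 0.0526 and 0.361. At the embryonic ages Zfp948 ran between 10.99 and 15.1 CPM in KO cells and between 7.91 and 16.2 CPM in HT cells, with overlapping groups at both. At D2.5 the stromal markers summed to 177.1 to 509.8 CPM in KO cells, 149.5 to 223.6 CPM in HT cells and 108.7 to 319.8 CPM in WT cells, and their part in the D2.5 differences was not tested.

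Zfp961, on chromosome 8, had 68.4, 66.7 and 79.5 CPM in KO cells at D2.5, against 31.1, 52.0 and 49.1 CPM in HT cells and 36.3, 55.3 and 37.1 CPM in WT cells. Each KO library was above each HT and WT library. The log2 fold change was 0.74 against HT cells (SE 0.31, edgeR adjusted p = 0.578) and 0.76 against WT cells (SE 0.31, edgeR adjusted p = 0.543), which share the KO libraries. At E16.5 its values ran the other way on average, at 26.2, 24.8 and 17.9 CPM in KO cells and 37.95, 34.7 and 23.6 CPM in HT cells, with overlapping groups. Zfp956, a member without the KRAB pattern, had 5, 0 and 0 counts in KO cells at D2.5, against 5, 21 and 23 counts in HT cells and 21, 1 and 22 counts in WT cells, values too low and too scattered for a call (KO against HT log2 fold change -3.09, SE 1.60, edgeR adjusted p = 0.729).

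Members with every KO library above every HT library at D2.5 numbered 2 (5.32% of all genes), Zfp948 and Zfp961, and 1 lay below, Zfp956 (6.68% of all genes). Against WT cells, 6 members lay above (6.0% of all genes) and 1 below (6.69%), and the 6 were Zfp942 (log2 fold change 1.12, SE 0.56), Zfp948, Zfp952 (1.72, SE 0.88), Zfp961, Zfp984 (0.39, SE 0.26) and Zfp985 (0.58, SE 0.35). The member below was Zfp937, with 4, 9 and 4 counts in KO cells, 9, 48 and 20 in HT cells and 45, 10 and 19 in WT cells. Other members near the top by p at D2.5 were Zfp945, at a mean of 70.3 CPM in KO and 45.0 CPM in HT cells (0.68, SE 0.33), and, with wider errors, Zfp937 (-1.98, SE 1.15) and Zfp940 (-0.78, SE 0.71) in the same comparison and Zfp949 in KO against WT cells (-0.89, SE 0.78). HT against WT gave 2 above (4.59%) and 1 below (4.04%). The direct test of whether the KO effect differed between ages called 0 of 48 members for E18.5 against E16.5 (0.0% of all genes called) and 0 of 48 for D2.5 against E18.5 (0.0531% of all genes called). In the second of these, 4 members had an unadjusted p under 0.05 (10.4% of all genes): Zfp948 (difference of log2 fold changes 1.27, SE 0.42, edgeR adjusted p = 0.294), Zfp961 (1.02, SE 0.41), Zfp937 (-2.91, SE 1.06) and Zfp956 (-2.83, SE 1.14). In the first, 0 members did (0.829% of all genes).

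Of 35 listed partners of KRAB zinc finger proteins and well-known KRAB genes, 1 passed in KO against HT cells at E18.5, a share of 2.86%, near the 2.14% of all genes called, and 0 passed at E16.5 (0.00618% of all genes called) and D2.5 (0.153%). The one that passed was Cbx5, which encodes the heterochromatin protein HP1 alpha, at a mean of 507.4 CPM in KO cells and 345.4 CPM in HT cells (log2 fold change 0.60, SE 0.15, edgeR adjusted p = 0.0490). That call was lost in 10 of 14 alternatives, among them leaving out any 1 of the 6 libraries. The corepressor family gene Trim33 averaged 624.3 CPM in KO and 470.4 CPM in HT cells at D2.5 (0.45, SE 0.15, edgeR adjusted p = 0.400), and the imprint-protecting KRAB gene Zfp445 averaged 109.3 CPM in KO and 72.2 CPM in HT cells (0.64, SE 0.24, edgeR adjusted p = 0.517). At E16.5 the HP1 beta gene Cbx1 gave -0.95 (SE 0.45) and the KRAB gene Zfp568 0.31 (SE 0.18), neither passing.

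Few members were called between the embryonic ages. In KO cells 0 of 48 passed at E18.5 against E16.5 (2.9% of all genes were called lower and 1.65% higher). There 3 members had an unadjusted p under 0.05 (23.6% of all genes), DESeq2 called 1 and limma-voom 0. In HT cells 1 of 48 members fell and 0 rose (8.39% of all genes were called lower and 4.81% higher). The one was Zfp961, with 19.2, 18 and 22.8 CPM at E18.5, against 37.95, 34.7 and 23.6 CPM at E16.5 (log2 fold change -1.05, SE 0.29, edgeR adjusted p = 0.0244). The adjusted p exceeded the threshold without HT replicate 1 or 2 of either age, reaching 0.113. When libraries were scaled by plain gene totals, Zfp961 was no longer called in HT cells, Zfp985 was called higher at E18.5 in both genotypes and Zfp979 in HT cells. The median of all genes moves with that choice, standing at 0.11 in HT cells with composition factors and 0.43 without. With plain gene totals 2.0% of all genes were called higher and 1.28% lower in KO cells, and 6.1% higher and 2.81% lower in HT cells. Cell markers also differed between these ages. In KO and HT libraries the stromal markers summed to 149.0 to 211.5 CPM at E18.5 and 21.9 to 105.5 CPM at E16.5, and the endothelial markers to 165.9 to 249.5 CPM at E18.5 and 77.2 to 129.9 CPM at E16.5. The median germ cell marker was lower at E18.5, as given above, and the part of these differences in the calls between the embryonic ages was not tested.

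Some genes of the machinery fell over this interval. In KO cells 4 of the 35 listed genes fell and 0 rose (2.9% of all genes were called lower and 1.65% higher), and in HT cells 11 fell and 0 rose (8.39% and 4.81% of all genes). Setdb1, the histone methyltransferase recruited through Trim28, averaged 179.1 CPM at E18.5 and 255.0 CPM at E16.5 in KO cells (log2 fold change -0.74, SE 0.21, edgeR adjusted p = 0.0491), and 164.3 CPM at E18.5 and 291.2 CPM at E16.5 in HT cells (-1.18, SE 0.21, edgeR adjusted p = 0.00327). The other 3 in KO cells were the chromatin remodeller gene Atrx (-1.16, SE 0.27), the HUSH complex gene Pphln1 (-1.07, SE 0.21) and Atf7ip (-0.67, SE 0.19), which encodes a partner of Setdb1. The KO calls of Setdb1 and Atf7ip were each lost in 6 of 26 alternatives, plain gene totals and the loss of KO replicate 1 or 2 at E16.5 or any KO replicate at E18.5. That of Atrx was lost in 4 (without KO replicate 1 or 2 at E16.5 or KO replicate 1 or 3 at E18.5) and that of Pphln1 in 1 (without KO replicate 1 at E16.5). In HT cells Atrx gave -1.55 (SE 0.28), Pphln1 -1.63 (SE 0.21) and the remodeller gene Smarcad1 -1.44 (SE 0.30). With plain gene totals 2 of the 35 fell in KO cells and 7 in HT cells, beside the shares of all genes given above for that scaling.

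The step across birth held most of the members' calls. At D2.5 against E18.5, 21 of 48 members rose and 1 fell in KO cells, where 21.1% of all genes were called higher and 34.2% lower. In HT cells 21 rose and 3 fell, beside 21.4% and 33.4% of all genes. The median log2 fold change of the members was 1.14 in KO and 0.98 in HT cells, against -0.54 and -0.51 for all genes tested. The other numbered Zfp genes had medians of 0.30 in KO and 0.26 in HT cells, and 82 of 317 rose in each genotype. KO and HT cells share no library, and 19 members rose in both (90.5% of the risers in each genotype, against 84.6% of KO and 83.2% of HT risers among all genes). Zfp930 and Zfp944 were called higher in KO cells alone and Zfp937 and Zfp940 in HT cells alone, and the tests of the KO effect between ages called none of the 4.

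**Figure D3:**
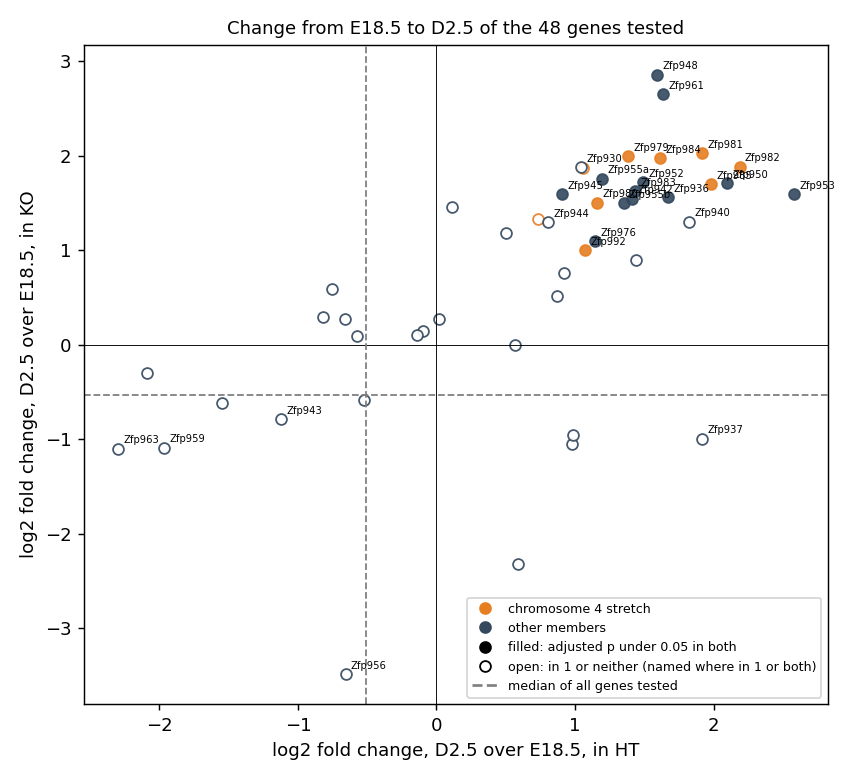
Log2 fold change of D2.5 over E18.5 for the 48 tested members in KO cells (y axis) and HT cells (x axis), orange for the chromosome 4 stretch, filled where the adjusted p was under 0.05 in both genotypes. Dashed lines mark the median of all genes tested (-0.54 in KO and -0.51 in HT cells), and the 19 members called in both lie in the upper right.

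Among the risers were most of the chromosome 4 genes. Of the 9 tested, 7 rose in both genotypes (Zfp979, Zfp980, Zfp981, Zfp982, Zfp984, Zfp985 and Zfp992), and the stretch had a median log2 fold change of 1.87 in KO and 1.38 in HT cells. The Zfp980 call in HT cells and the Zfp992 calls in both genotypes were lost without certain single libraries, as given below. Of the other 39 tested members, 14 rose in each genotype, while 1 fell in KO and 3 in HT cells. The stretch was singled out after its values were seen, so this is a description of it. Zfp984 had 107.8, 86.8 and 106.4 CPM at D2.5, against 47.1, 33.0 and 28.1 CPM at E18.5, in KO cells (log2 fold change 1.98, SE 0.26, edgeR adjusted p = 4.12e-06). In HT cells it had 69.8, 114.1 and 71.5 CPM at D2.5, against 40.6, 41.6 and 35.0 CPM at E18.5 (1.62, SE 0.26, edgeR adjusted p = 3.75e-05). The ages did not overlap in either genotype, and the 3 WT libraries at D2.5 held 79.8, 78.9 and 75.5 CPM.

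Zfp979 and Zfp985 stepped up at each age in CPM, with the first step not called with composition factors, as given above. On the CPM scale 7062 of 18815 genes in KO and 7649 in HT cells had every E18.5 library above every E16.5 library. Among the members 9 of 48 in KO and 12 of 48 in HT cells did. Besides Zfp979 and Zfp985, Zfp980, Zfp981, Zfp984 and Zfp992 of the same stretch did so in both genotypes. Zfp985 averaged 8.12 CPM at E16.5, 17.9 CPM at E18.5 and 41.2 CPM at D2.5 in KO cells, and 6.76, 13.5 and 37.8 CPM at the same ages in HT cells. Its log2 fold change across birth was 1.70 in KO (SE 0.29, edgeR adjusted p = 6.85e-05) and 1.98 in HT cells (SE 0.29, edgeR adjusted p = 1.33e-05). Zfp979 averaged 20.8, 28.2 and 79.7 CPM at the 3 ages in KO cells and 20.9, 41.3 and 76.3 CPM in HT cells, with log2 fold changes across birth of 2.00 in KO (SE 0.25) and 1.38 in HT cells (SE 0.25). Zfp982 and Zfp981, at lower levels, rose by 1.89 and 2.03 on the log2 scale in KO cells and by 2.19 and 1.91 in HT cells.

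Of the 8 members whose promoter window holds TATTGGGCGGGT, marked in the sequences printed above, 6 rose in each genotype. Of the 37 tested members with a window that lacks it, 13 rose in KO and 14 in HT cells. The 6 that rose lie in the chromosome 4 stretch, and Zfp947 and Zfp994, which have the word on chromosome 17, were the 2 that were not called. The word was drawn from the windows of the chromosome 4 genes after their values were seen. These counts therefore restate the rises of that stretch and cannot test whether the word goes with a rise.

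Outside chromosome 4 the steepest rises in KO cells were those of Zfp948 and Zfp961. Zfp948 averaged 70.4 CPM at D2.5 and 13.6 CPM at E18.5 in KO cells (log2 fold change 2.86, SE 0.31, edgeR adjusted p = 3.62e-07), and 30.5 CPM at D2.5 and 14.2 CPM at E18.5 in HT cells (1.59, SE 0.30, edgeR adjusted p = 0.000203). Zfp961 averaged 71.5 CPM at D2.5 and 16.1 CPM at E18.5 in KO cells (2.65, SE 0.30, edgeR adjusted p = 5.84e-07), and 44.03 CPM at D2.5 and 19.99 CPM at E18.5 in HT cells (1.63, SE 0.29, edgeR adjusted p = 0.000113). As stated above, the difference between the genotypes in these rises did not pass.

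In HT cells the largest log2 fold change was that of Zfp953 on chromosome 13 (2.58, SE 0.54), which averaged 8.82 CPM at D2.5 and 2.07 CPM at E18.5. In KO cells it gave 1.60 (SE 0.53), a call lost without KO replicate 2 at E18.5 (adjusted p = 0.0553). Zfp950 on chromosome 19 rose by 1.71 in KO and 2.10 in HT cells, and Zfp936 on chromosome 7 by 1.56 and 1.67. The chromosome 17 genes Zfp952, Zfp955a and Zfp955b rose in both genotypes, by 1.497 to 1.757 in KO and 1.20 to 1.49 in HT cells. The Zfp952 call was lost without KO replicate 2 or 3 at E18.5 in KO cells (adjusted p up to 0.0660). In HT cells it was lost without HT replicate 1 at D2.5, HT replicate 1 or 2 at E18.5 or KO replicate 1 at E16.5 (adjusted p up to 0.349).

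**Figure D4:**
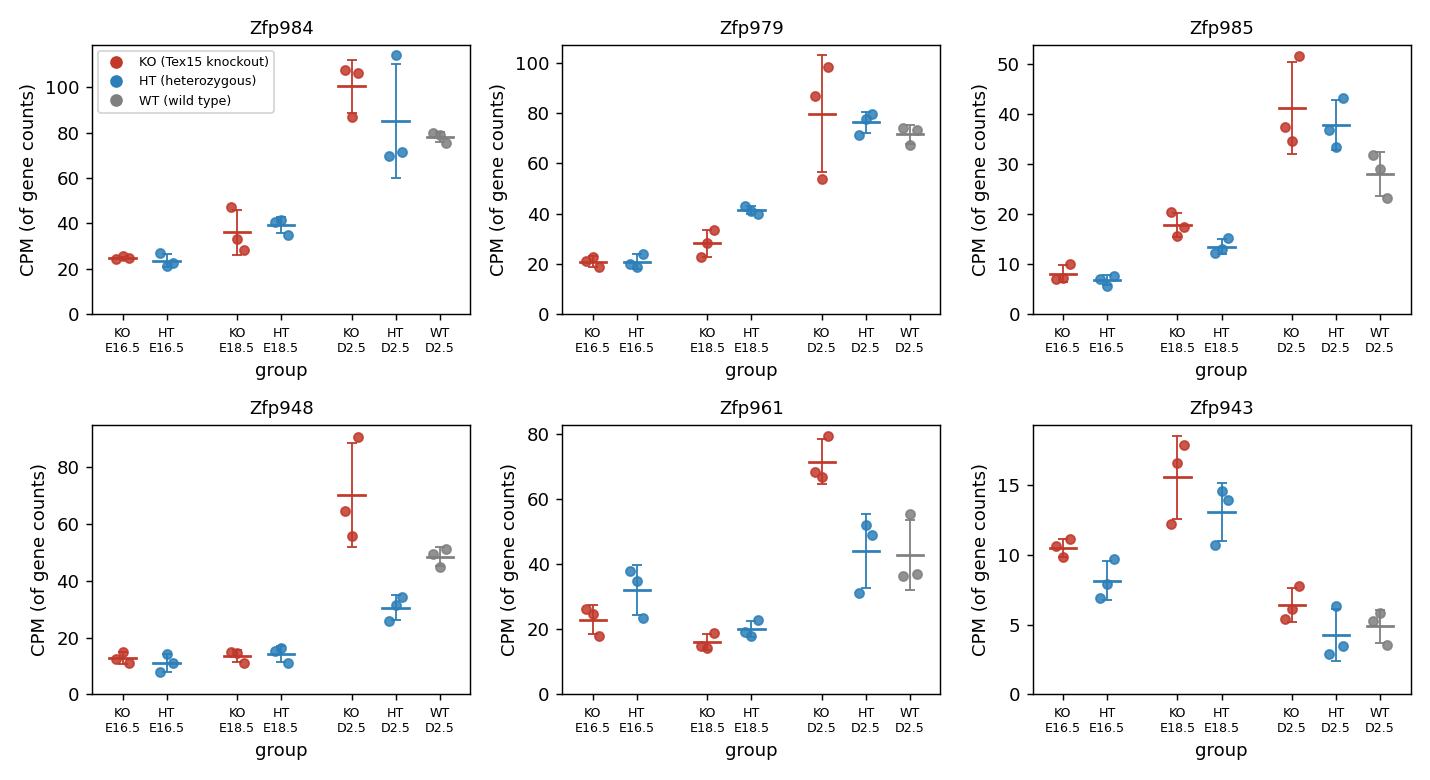
CPM of 6 members in each library, with points for libraries, long bars for group means and error bars for the SD (n = 3 each). Zfp984, Zfp979, Zfp985, Zfp948 and Zfp961 have their 3 highest group means at D2.5, while Zfp943 has its 3 lowest there.

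Few members fell across birth. In KO cells Zfp956 fell, with 5, 0 and 0 counts at D2.5, against 46, 39 and 28 counts at E18.5 (log2 fold change -3.49, SE 0.89, edgeR adjusted p = 0.00275), a call kept without each library, although the fitted value moved between -8.02 and -2.79. In HT cells Zfp943, on chromosome 17, had 2.91, 6.36 and 3.44 CPM at D2.5, against 10.7, 14.6 and 13.9 CPM at E18.5 (-1.12, SE 0.41, edgeR adjusted p = 0.0256). That call was lost on leaving out any of 10 of the 18 libraries, with an adjusted p of up to 0.129. Zfp959 (-1.96, SE 0.75) and Zfp963 (-2.30, SE 0.87) had 1 to 5 counts per HT library at D2.5. The call of Zfp959 was lost without any of 11 libraries (adjusted p up to 0.108) and that of Zfp963 without any of 7 (adjusted p up to 0.106). For each of these 3 genes the libraries included HT replicates 1 and 3 at D2.5 and all 3 HT replicates at E18.5.

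The size of the rise depends on how libraries of different ages are scaled. With plain gene totals in place of composition factors the median of all genes moved to -1.03 in KO and -1.004 in HT cells, and the members' median to 0.64 and 0.45. Then 14 members rose and 3 fell in KO cells (14.2% of all genes were called higher and 44.0% lower), and 11 rose and 4 fell in HT cells (14.3% and 43.1% of all genes). The 14 and the 11 were all among the 21 called before, and 10 members, 5 of them on chromosome 4, rose in both genotypes (Zfp936, Zfp948, Zfp950, Zfp955b, Zfp961, Zfp979, Zfp981, Zfp982, Zfp984 and Zfp985). With composition factors, leaving out members that share more than 50% of their 31-base words gave 16 of 39 rising in each genotype. Their median log2 fold change was 0.758 in KO and 0.908 in HT cells. Leaving out those that share more than 10% gave 7 of 18 rising in each genotype, with medians of 0.945 in KO and 0.511 in HT cells. Of all genes, 21.1% were called higher in KO and 21.4% in HT cells.

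Leaving out each of the 18 libraries in turn kept 15 of the 21 rises in KO and 14 of 21 in HT cells in every case. Among the others, Zfp992 was lost without KO replicate 3 at D2.5 in KO cells (adjusted p = 0.0631) and without HT replicate 2 at D2.5 in HT cells (adjusted p = 0.0710). Zfp980 was lost in HT cells without HT replicate 2 at D2.5 or HT replicate 1 or 3 at E18.5 (edgeR adjusted p up to 0.088). The 3 ages were deposited in separate tables and the labels name no batch, so age and any difference in handling between ages cannot be told apart. Cell markers moved over the same step. The endothelial markers summed to 93.03 to 132.3 CPM at D2.5 and 165.9 to 249.5 CPM at E18.5 in KO and HT libraries, without overlap. The median germ cell marker stood at 18.9 CPM at D2.5 and 164.5 CPM at E18.5 in KO cells, and at 27.99 and 211.8 CPM in HT cells. The sum of the 10 germ cell markers went the other way, without overlap. It was 3410 to 4806 CPM at D2.5 and 2352 to 2910 CPM at E18.5 in KO cells. In HT cells it was 4155 to 4560 CPM at D2.5 and 2802 to 3408 CPM at E18.5. The stromal markers summed to 177.1 to 509.8 CPM at D2.5 and 173.8 to 211.5 CPM at E18.5 in KO cells, and to 149.5 to 223.6 CPM and 149.0 to 200.8 CPM in HT cells, with overlap in both. In HT cells the macrophage and blood markers summed to 69.3 to 82.9 CPM at D2.5 and 33.9 to 36.5 CPM at E18.5, without overlap. The Leydig markers there summed to 11.6 to 33.7 CPM and 36.2 to 39.7 CPM, also without overlap. Both lists overlapped between these ages in KO cells. More genes were at 0 at D2.5, and the part of these differences in the rise was not tested.

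Genes of the KRAB machinery changed across birth in both directions. Of the 35 listed genes 18 rose and 5 fell in KO cells (21.1% of all genes were called higher and 34.2% lower), and 20 rose and 5 fell in HT cells (21.4% and 33.4% of all genes). With plain gene totals 15 rose and 7 fell in each genotype (14.2% and 44.0% of all genes in KO, 14.3% and 43.1% in HT cells). All 3 HUSH genes of the list rose in both genotypes. Fam208a averaged 548.6 CPM at D2.5 and 100.6 CPM at E18.5 in KO cells (log2 fold change 2.94, SE 0.32, edgeR adjusted p = 2.96e-07), and 518.7 CPM at D2.5 and 77.7 CPM at E18.5 in HT cells (3.25, SE 0.32, edgeR adjusted p = 9.92e-08). Pphln1 gave 3.29 in KO (SE 0.23) and 3.46 in HT cells (SE 0.23), Mphosph8 1.68 (SE 0.26) and 1.55 (SE 0.26), and Atrx 3.02 (SE 0.29) and 2.77 (SE 0.29). Trim28, the corepressor that binds the KRAB box, fell, with means of 104.7 CPM at D2.5 and 250.6 CPM at E18.5 in KO cells (-0.76, SE 0.24, edgeR adjusted p = 0.0111), and 85.5 CPM at D2.5 and 310.5 CPM at E18.5 in HT cells (-1.35, SE 0.24, edgeR adjusted p = 0.000112). The DNA methyltransferase gene Dnmt3a (-2.02 in KO, SE 0.20, and -2.03 in HT cells, SE 0.20) and its cofactor gene Dnmt3l (-5.46 in KO, SE 0.70, and -5.57 in HT cells, SE 0.70) fell in both genotypes.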

How the data were processed

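RNA-seq of 21 libraries was analysed. The deposited values are read counts per gene, whole numbers in 3 tables by age that also hold 1217 repeat names; the authors' repeat family tables were not used. The submitters' processing notes name STAR, Bowtie, featureCounts, edgeR and mm9, without versions or roles. RNA was isolated with a PicoPure kit and amplified with NuGEN Ovation kits, per the labels. Members, gene lists, named-gene rule and tests were chosen with earlier results of these data known.

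Gene counts were tested with edgeR 4.0.16 in R 4.3.3: filterByExpr (minimum count 10, minimum total 15), TMM factors over gene rows, quasi-likelihood fits, two-sided tests, Benjamini-Hochberg adjustment over all genes tested, threshold 0.05. SEs come from the log2 fold change and its F statistic (size over root F). Each embryonic age was fitted with its 6 libraries, D2.5 with 9, and age contrasts with 18 in 1 fit that leaves out WT cells. CPM uses plain gene totals, while fold changes also use TMM factors, so ratios of CPM between ages differ from them. The fits were tested on simulated data.

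Named members were those that passed (up to 10 per direction), otherwise the lowest p; the 6 highest and 3 lowest per kb; and those removed by the filter. Other members (chromosome 4, shared words, groups that do not overlap) and Trim28, Dnmt3l and Mphosph8 were named after their values were seen. GENCODE M21 gave lengths, shared 31-base words and translated patterns, and Biopython 1.88 aligned promoters. Alternatives were RLE factors, TMM over genes and repeat names, no filter, a stricter one (at least 30 counts in at least 3 libraries), DESeq2 1.42.0, limma-voom 3.58.1, replicate blocks and leaving out each library; plain gene totals were added after seeing the data. Reads were not realigned. Counting floors cover counting error only.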

Additional observations from a re-analysis of the deposited data

How the results depend on the processing

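The absence of called members in KO against HT, KO against WT and HT against WT cells held under each alternative run, leaving out each library included (0 to 0 members), except that DESeq2 called 1 member, Zfp948, in KO against HT cells at D2.5. For E18.5 against E16.5 in KO cells, where 0 were called, DESeq2, the replicate block and plain gene totals each called 1, and leaving out 1 library gave 0 to 1. In HT cells, where 1 was called, DESeq2 called 3, limma-voom 2, the replicate block 2 and plain gene totals 2, and leaving out 1 library gave 0 to 2. For D2.5 against E18.5, 22 members were called in KO cells, and 19 to 24 without 1 library; in HT cells 24 were called, 15 with plain gene totals and 16 to 27 without 1 library. Tex15 in KO cells changed sign between E16.5 and E18.5 with plain gene totals (log2 fold change 0.055, and -0.16 with composition factors), neither passing. With the composition factors of the fit across ages, the summed member level became 357.2 CPM in HT cells at E16.5 (346.6 in KO cells). It became 325.2 CPM in KO and 334.8 CPM in HT cells at E18.5, and 933.7 CPM in KO cells at D2.5. These shifts come from dividing each library's sum by its factor, which was 0.784, 0.846 and 0.871 in the KO libraries at D2.5. Why the factors differ between ages was not tested. For single named genes, 2045 planned recalculations stayed on the same side of the threshold, 68 lost a call and 2 gained one. Same-numbered KO and HT replicates deviated together at E16.5 for numbers 1 and 3 (r = 0.58 and 0.76) but not 2 (r = -0.12), at E18.5 weakly (r = 0.21, 0.13 and 0.091) and not at D2.5 (-0.018 to 0.032), so the numbers were not taken as pairing. D2.5 libraries, with the fewest counts and the widest spread, limit what can be seen of low members there.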
